A study of Homo sapiens with 6 samples.

Results

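The 10 genes described here are the 4 inhibitors of DNA binding (ID1, ID2, ID3 and ID4) and 6 ligand or feedback genes of transforming growth factor beta (TGF-beta) and bone morphogenetic protein (BMP) signalling (SMAD6, SMAD7, SKIL, BAMBI, TGFB1 and TGFB2). They were chosen by symbol, with earlier results of these data known, so counts of those that passed only describe them. All 10 were found among the 23686 genes of the deposited count files. The libraries come from HEK293, an established human embryonic kidney line, and the sampled cells were GFP+, that is, they made green fluorescent protein. In the co-culture group, 3 samples of GFP+ HEK293 cells had shared their dish for 10 h with HEK293 cells carrying DAAO (D-amino acid oxidase), which release reactive oxygen species (ROS) when given D-alanine, here at 25 µM. The control group held 3 samples of GFP+ HEK293 cells labelled as wild type controls, and both groups passed through the same fluorescence-activated sort for GFP. The labels carry 1 treatment text for all samples, so whether the controls received D-alanine or had partner cells is not stated. Nothing in the labels says that the samples of a group came from separate cultures, so p-values measure only the spread between these samples, which may be technical. RNA was measured in bulk, so a change in every cell and a larger change in a share of the cells cannot be told apart.

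TGF-beta and BMP ligands bind pairs of receptor kinases at the cell surface, and the receptors phosphorylate SMAD proteins that enter the nucleus with SMAD4 and bind DNA. TGF-beta and activin receptors act mainly through SMAD2 and SMAD3, and BMP receptors mainly through SMAD1, SMAD5 and SMAD9. Several targets of these SMADs shut the pathway down again: SMAD7 and SMAD6 block the receptors, SKIL (SnoN) holds SMAD complexes in a repressed state, and BAMBI is a receptor-like protein without a kinase. The ID genes are classical BMP targets whose proteins pair with E proteins such as TCF3 and keep them off DNA, and they are also induced by other signals, including growth factors.

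Of the 10 genes, 5 rose in co-culture and 0 fell at a Benjamini-Hochberg adjusted p (false discovery rate, FDR) under 0.05 in edgeR's quasi-likelihood test. Over all 14582 genes tested, 2.66% rose and 2.17% fell. At an unadjusted edgeR p under 0.05, 6 of the 10 were higher and 1 was lower. Of the 14582 genes, 1706 were higher and 1671 lower by that measure. DESeq2 and limma-voom called 5 and 4 of the 10 higher and 0 lower, and 7.08% and 4.43% of all genes in either direction. The largest rise was that of SKIL, at 1.85-fold, followed by SMAD7 at 1.55-fold, TGFB1 at 1.48-fold, ID1 at 1.36-fold and ID2 at 1.16-fold. SMAD6, ID3, TGFB2, ID4 and BAMBI did not pass. All 10 genes had enough reads to be tested, and the lowest count of any of them in any library was 183 reads, for TGFB2 in control 2. In 7 of the 10 genes every co-culture library lay above every control, which was the case for 14.3% of all genes tested, and in 0 genes did every co-culture library lie below (15% of all genes).

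The libraries held between 19091085 and 36250314 reads assigned to genes. The 10 genes listed as HEK293 markers were all present at 1 CPM (reads scaled to a common library size) or more. Their summed level ran from 2200 to 2410 CPM in co-culture and from 1830 to 1900 CPM in the controls, and its part in the results was not tested. The listed blood, endothelial and hepatocyte markers summed to at most 0.261 CPM in any library, and CD3E and the human DAO gene had 0 reads in all 6. Human DAO counts need not detect the DAAO transgene, so they cannot show whether partner cells passed the sort. COL1A1, COL3A1 and PDGFRA, listed as fibroblast markers, summed to between 45.2 and 52.7 CPM in co-culture and between 39.9 and 54.5 CPM in the controls. The libraries also differed in a technical measure. In genes with many reads, the median percentage of reads on the opposite strand was 0.124% and 0.211% in co-culture libraries 2 and 3, and from 1.57% to 1.75% in co-culture library 1 and the 3 controls. Values from a fit with this strand class as a batch term follow for the 10 genes and for the list genes that passed, and that fit sets only co-culture library 1 against the controls.

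The stretches of 250 bases that lie before the annotated starts of 5 of the genes are shown here because their letters differ in motifs linked to SMADs and to cyclic AMP and stress signalling. SKIL and SMAD7 had the largest rises, ID1 the largest among the ID genes, and SMAD6 and BAMBI did not pass the test. The sequences are from RefSeq, build GRCh38.p14, and are written 5′ to 3′ on the gene's own strand, with motif matches in capitals: SKIL (chr3:170357465-170357714, plus strand), SMAD7 (the farthest upstream of its 3 listed starts, chr18:48950966-48951215, minus strand), ID1 (chr20:31605039-31605288, plus strand), SMAD6 (chr15:66701986-66702235, plus strand) and BAMBI (chr10:28677271-28677520, plus strand).
SKIL: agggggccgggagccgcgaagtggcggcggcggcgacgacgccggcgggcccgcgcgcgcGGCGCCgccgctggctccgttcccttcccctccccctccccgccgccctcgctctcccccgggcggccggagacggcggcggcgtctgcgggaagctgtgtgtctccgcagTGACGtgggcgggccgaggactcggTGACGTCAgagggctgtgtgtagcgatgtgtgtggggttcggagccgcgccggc
SMAD7: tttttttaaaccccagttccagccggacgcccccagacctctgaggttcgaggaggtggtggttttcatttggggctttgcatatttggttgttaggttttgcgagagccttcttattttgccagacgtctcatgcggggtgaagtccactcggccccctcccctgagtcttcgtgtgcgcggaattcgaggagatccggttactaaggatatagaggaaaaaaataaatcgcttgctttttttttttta
ID1: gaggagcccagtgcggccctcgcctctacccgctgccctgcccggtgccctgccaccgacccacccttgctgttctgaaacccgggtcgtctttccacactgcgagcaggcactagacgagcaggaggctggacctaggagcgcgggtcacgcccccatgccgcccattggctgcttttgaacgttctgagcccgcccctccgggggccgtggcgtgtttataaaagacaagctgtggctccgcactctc
SMAD6: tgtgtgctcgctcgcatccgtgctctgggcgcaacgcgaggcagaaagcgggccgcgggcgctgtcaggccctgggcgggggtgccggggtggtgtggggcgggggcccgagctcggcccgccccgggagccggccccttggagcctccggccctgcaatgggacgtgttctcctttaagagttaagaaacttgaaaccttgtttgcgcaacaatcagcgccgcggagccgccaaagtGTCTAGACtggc
BAMBI: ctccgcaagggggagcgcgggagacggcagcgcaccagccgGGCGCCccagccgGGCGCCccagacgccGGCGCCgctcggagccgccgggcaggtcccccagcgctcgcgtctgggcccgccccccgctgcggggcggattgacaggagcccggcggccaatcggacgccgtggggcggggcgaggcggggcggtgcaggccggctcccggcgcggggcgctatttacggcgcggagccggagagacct

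Both strands of each window were searched for the SMAD palindrome GTCTAGAC, the shorter SMAD site CAGACA, the GC-rich BMP element GGCGCC, the AP-1 site TGANTCA, the cyclic AMP response element TGACGTCA with its core TGACG, and the E-box CAGCTG. The full cyclic AMP element contains the core, so those matches overlap. All 10 genes had at least 1 window in the table, 12 windows in all, and the same search was run on all 35116 windows of that length. The SMAD palindrome stood in 1 of the 12 windows, that of SMAD6, where it begins 12 bases before the start, and in 0.182% of all windows. The full cyclic AMP element was found before SKIL alone among the 10 genes, beginning 54 bases before the start, against 1.65% of all windows, and a separate core begins 79 bases before the SKIL start. GGCGCC stood in 2 of the 12 windows, 3 times before BAMBI and once before SKIL, against 16.4% of all windows with at least 1 match. TGANTCA matched in 0 of the 12 windows and in 6.57% of all windows. CAGACA, the core TGACG and the E-box CAGCTG stood in 1, 3 and 2 of the 12 windows, against 13.6%, 21.2% and 14% of all windows. TATAAA, also searched but left in small letters, stood in 4 of the 12 windows and in 10.7% of all windows. Apart from TATAAA, the windows of SMAD7, ID1 and TGFB1 held none of the searched letters, which says nothing of the factors that may act there or farther away. Guanine and cytosine made up 78.4% of the SKIL window, 81.2% of the BAMBI window and 48.0% of the printed SMAD7 window, with a median of 58.0% over all windows.

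SKIL encodes SnoN, a nuclear corepressor that binds SMAD2, SMAD3 and SMAD4, is degraded when TGF-beta arrives and is then induced again as a target of the pathway. SKIL stood at 127, 131 and 110 CPM in co-culture libraries 1, 2 and 3 and at 56.4, 64.3 and 78.0 CPM in controls 1, 2 and 3. The lowest co-culture library lay well above the highest control, and control 3 was the highest of its group. The means were 122.7 ± 11.1 and 66.2 ± 10.9 CPM (SD, n = 3 each), and the log2 fold change was 0.89 (SE 0.11, 95% interval 0.63 to 1.14) at an edgeR FDR of 0.00435. With a batch term for strand class the log2 fold change was 0.94, and the edgeR FDR was 0.0903. In the 6 fits that left out 1 library each, the SKIL value ran from 0.78 to 1.02 and stayed past the threshold in each. SKI, the closest relative of SKIL, was at 134.5 ± 1.21 CPM in co-culture and at 150.2 ± 6.53 CPM in the controls, and the log2 fold change was -0.16 (SE 0.06, edgeR FDR 0.128). The number of SKIL reads per SKI read was 0.946, 0.983 and 0.811 in co-culture libraries 1 to 3 and 0.394, 0.424 and 0.50 in controls 1 to 3. This ratio does not depend on how libraries are scaled, and the groups did not overlap. Its log2 difference was 1.06 (exact permutation test, two-sided p = 0.10, the smallest that 3 against 3 samples can give). It is 1 of 4 ratios, all chosen after the values were seen.

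SMAD7 is the inhibitory SMAD that blocks both TGF-beta and BMP receptors and brings ubiquitin ligases to them. SMAD7 stood at 94.7, 89.5 and 96.9 CPM in the co-culture libraries and at 45.6, 65.9 and 70.1 CPM in the controls. The co-culture values lay close together, the controls were spread widely with control 1 lowest, and the groups did not overlap. The means were 93.7 ± 3.82 and 60.5 ± 13.1 CPM (SD, n = 3 each), and the log2 fold change was 0.63 (SE 0.14, 95% interval 0.31 to 0.94, edgeR FDR 0.0402). Its value fell to 0.46 without control 1, at an edgeR FDR of 3.82e-05. SMAD7 missed the threshold without control 2 (0.69, edgeR FDR 0.106) and without co-culture library 1, 2 or 3 (0.63, 0.66 and 0.61, edgeR FDR 0.129, 0.126 and 0.0771). It also lost it with no filter on low counts (0.63, edgeR FDR 0.0804) and with the strand class term (0.64, edgeR FDR 0.285).

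SMAD6 is the other inhibitory SMAD and acts mainly on the BMP branch. It stood at 17.1, 19.3 and 19.1 CPM in co-culture and at 14.8, 16.5 and 13.9 CPM in the controls. The groups did not overlap, but co-culture library 1 exceeded control 2 by little. The log2 fold change of SMAD6 was 0.30 (SE 0.10, 95% interval 0.09 to 0.52) and the edgeR FDR 0.10, so the difference did not pass. It passed in 1 of 14 other settings, the fit without control 1 (0.29, edgeR FDR 0.0398), and its value was 0.19 with the strand class term. There were 5.54, 4.63 and 5.08 SMAD7 reads per SMAD6 read in co-culture and 3.08, 3.98 and 5.05 in the controls. That ratio overlapped between the groups, through control 3, and its log2 difference was 0.36 (exact permutation test, two-sided p = 0.20), so SMAD7 and SMAD6 were not shown to differ in response.

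BAMBI, the pseudoreceptor, is itself a target of BMP, TGF-beta and Wnt signalling. BAMBI stood at 44.6, 48.7 and 42.3 CPM in co-culture and at 44.6, 58.6 and 64.1 CPM in the controls. Controls 2 and 3 lay above all co-culture libraries, and control 1 was level with them. The log2 fold change was -0.31 (SE 0.12, 95% interval -0.58 to -0.04, edgeR FDR 0.163). Without control 1 it was -0.45 with an edgeR FDR of 0.000285, the 1 setting of 14 in which BAMBI passed. With the strand class term it was -0.33.

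**Figure D1:**
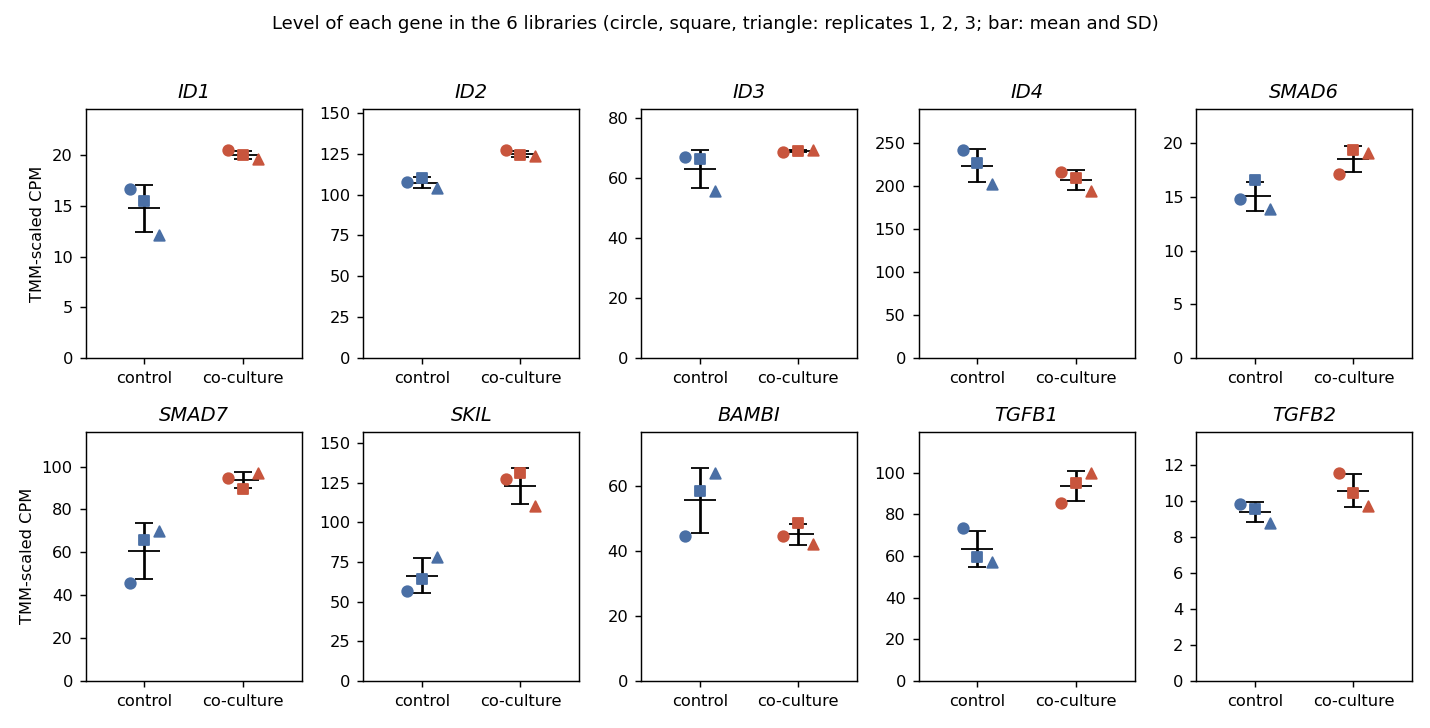
Level of each of the 10 genes in TMM-scaled CPM (vertical axis, from 0) in the 3 control and 3 co-culture libraries, with replicate 1, 2 and 3 drawn as circle, square and triangle and bars for the mean and SD. SKIL, SMAD7, TGFB1, ID1, ID2, ID3 and SMAD6 have every co-culture library above every control, and control 1 is the lowest control for SKIL (56.4 CPM), SMAD7 (45.6 CPM) and BAMBI (44.6 CPM).

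TGFB1 encodes TGF-beta 1, a ligand secreted in a latent form that must be activated outside the cell, and its own gene is among those that TGF-beta and AP-1 factors can induce. TGFB1 stood at 85.6, 95.03 and 99.8 CPM in co-culture and at 73.3, 59.7 and 57.2 CPM in the controls. The groups did not overlap, and control 1 was here the highest of its group. The means were 93.4 ± 7.23 and 63.4 ± 8.64 CPM (SD, n = 3 each), and the log2 fold change was 0.56 (SE 0.10, 95% interval 0.35 to 0.77, edgeR FDR 0.0118). The value rose to 0.68 without control 1 and was 0.49 without control 3. TGFB1 missed the threshold when co-culture library 2 or 3 was left out (0.55 and 0.51, edgeR FDR 0.0912 and 0.0531), without control 2 (0.52, edgeR FDR 0.0843) and with the strand class term (0.43, edgeR FDR 0.267).

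TGFB2 encodes a second TGF-beta isoform and was the least abundant of the 10 genes. It stood at 11.6, 10.5 and 9.72 CPM in co-culture and at 9.86, 9.55 and 8.78 CPM in the controls. Co-culture library 3 fell below control 1, so the groups overlapped. The log2 fold change was 0.17 (SE 0.12, 95% interval -0.09 to 0.42, edgeR FDR 0.417), an interval that reaches up to a 1.34-fold rise. With the strand class term the value was 0.30. There were 7.40, 9.09 and 10.3 TGFB1 reads per TGFB2 read in co-culture and 7.44, 6.26 and 6.52 in the controls, with an overlap through co-culture library 1 and control 1. The log2 difference of this ratio was 0.40 (exact permutation test, two-sided p = 0.20). TGFB3, the remaining isoform, was at 5.15 ± 0.383 CPM in co-culture and at 5.37 ± 0.529 CPM in the controls.

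Among the ID genes, ID1 and ID2 rose, and ID3 and ID4 did not pass. ID1, a prompt BMP target in many cell types, stood at 20.5, 20.0 and 19.7 CPM in co-culture and at 16.7, 15.4 and 12.2 CPM in the controls. The co-culture libraries differed by under 1 CPM and all exceeded the highest control, and control 3 was the lowest. The means were 20.0 ± 0.401 and 14.8 ± 2.33 CPM (SD, n = 3 each), and the log2 fold change was 0.45 (SE 0.11, 95% interval 0.20 to 0.70, edgeR FDR 0.0493). ID1 sat at the threshold: it passed in 5 of 14 other settings and in 1 of the 6 fits with a library left out, namely without control 1 (0.55, edgeR FDR 0.00104). Without control 3 the value was 0.32 (edgeR FDR 0.0789), and with the strand class term it was 0.48 (edgeR FDR 0.315). Scaling by library totals gave 0.41 (edgeR FDR 0.0694).

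ID2, which also binds the retinoblastoma protein, was at 127.0, 124.3 and 123.4 CPM in co-culture and at 108.0, 110.2 and 103.9 CPM in the controls. Both groups were tight and did not overlap. The log2 fold change was 0.22 (SE 0.05, 95% interval 0.10 to 0.34, edgeR FDR 0.0465), a rise from 107.3 ± 3.22 to 124.9 ± 1.86 CPM (SD, n = 3 each). ID2 passed in 5 of 14 other settings. It did not pass with library totals (0.19, edgeR FDR 0.0623), in limma-voom (0.22, adjusted p 0.0521), with the strand class term (0.24, edgeR FDR 0.305) or in the 5 fits that left out a library other than control 1 (0.20 to 0.24).

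ID3, often co-regulated with ID1, stood at 68.7, 69.0 and 69.1 CPM in co-culture and at 67.0, 66.3 and 55.5 CPM in the controls. All co-culture libraries lay above the controls, but controls 1 and 2 were within a few CPM of them and only control 3 stood clearly lower. The log2 fold change was 0.13 (SE 0.08, 95% interval -0.04 to 0.30, edgeR FDR 0.328), 0.05 without control 3 and 0.13 with the strand class term. ID4, the member most tied to neural and glial precursors, was at 217.2, 209.6 and 194.7 CPM in co-culture and at 241.9, 227.7 and 203.2 CPM in the controls. The groups overlapped through control 3, and the log2 fold change was -0.11 (SE 0.07, 95% interval -0.28 to 0.05, edgeR FDR 0.388), and -0.05 with the strand class term. Per 1 ID4 read there were 0.0942, 0.0954 and 0.101 ID1 reads in co-culture and 0.0690, 0.0678 and 0.0599 in the controls. The groups did not overlap in this ratio, with a log2 difference of 0.57 (exact permutation test, two-sided p = 0.10, the smallest possible here). ID1 and ID4 were paired after their values were seen, so this ratio only describes them.

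**Figure D2:**
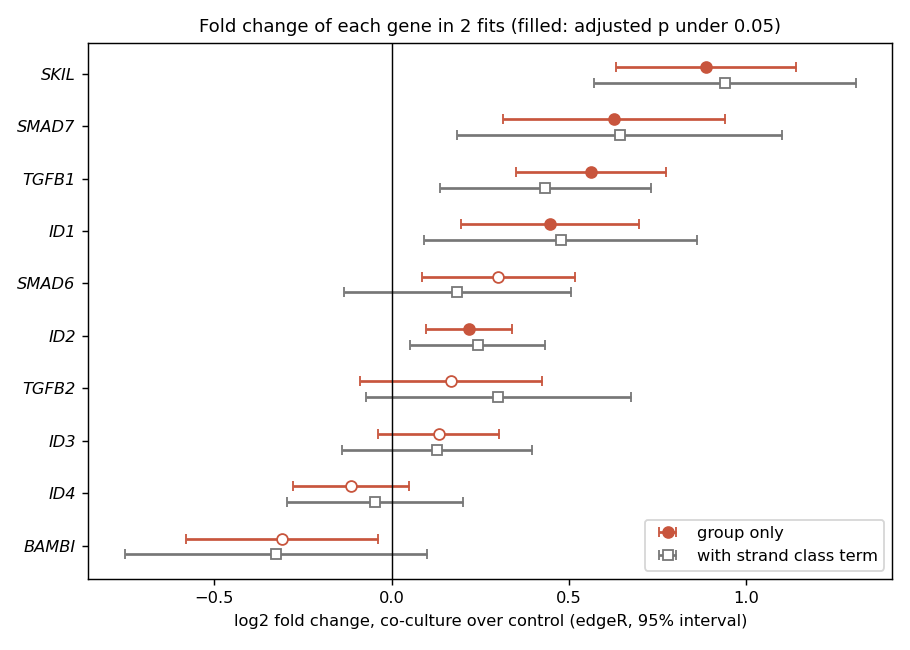
Log2 fold change of co-culture over control with its 95% interval (horizontal axis) for each gene, from edgeR with group as the only term (circles) and with a batch term for strand class (squares), filled where the adjusted p was under 0.05. SKIL lies farthest to the right in both fits, at 0.89 and 0.94, and the count of genes past the threshold is 5 in the first fit and 0 in the second.

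Both the calls and some of the values moved with the strand class. With it as a batch term in edgeR, 0 of the 10 genes and 0.199% of all genes tested passed. The edgeR FDR of the 10 genes ran from 0.0903 for SKIL to 0.904 for ID4. The direction of all 10 was kept, and the values of SKIL, SMAD7, ID1, ID2 and BAMBI were at least as large as without the term. That of TGFB2 rose from 0.17 to 0.30, while those of SMAD6, TGFB1 and ID4 lay nearer to 0, at 0.19, 0.43 and -0.05 against 0.30, 0.56 and -0.11. Co-culture library 1 belongs to the same class as the controls, and it exceeded all 3 controls in 8 of the 10 genes and lay below all 3 in 1, BAMBI. Over all genes tested, 28.2% had that library above the 3 controls and 28.6% had it below.

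The controls were not alike in these genes, and the members fell into 3 orders there. Relative to the control mean, control 3 was the highest control for SKIL, SMAD7 and BAMBI, at 0.24, 0.21 and 0.20 on the log2 scale, and control 1 the lowest, at -0.23, -0.41 and -0.32. For ID1, ID3, ID4, TGFB1 and TGFB2 the reverse held, with control 3 lowest, at -0.28, -0.18, -0.14, -0.15 and -0.10. In ID2 and SMAD6, control 2 was highest and control 3 lowest. The count of genes past the threshold depended on single libraries: 7 without control 1 (6 higher, and BAMBI lower), 3 without control 3, 2 without co-culture library 1, and 1, which was SKIL, without control 2, co-culture library 2 or co-culture library 3. Over all genes tested the share of calls moved in the same fits, to 20.8% without control 1 and to 0.440% without control 2.

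**Figure D3:**
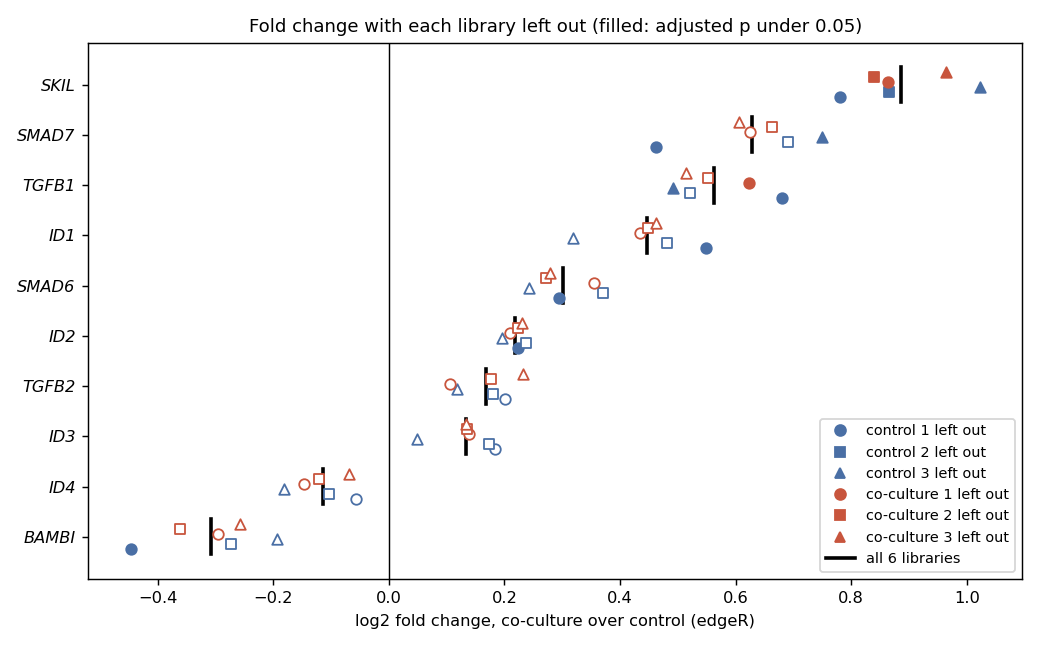
Log2 fold change of each gene (horizontal axis) with all 6 libraries (black bars) and with 1 library left out (symbols, coloured by group), filled where the edgeR FDR was under 0.05. SKIL stays past the threshold in every fit, between 0.78 and 1.02, while SMAD7 moves to 0.46 without control 1 and ID1 to 0.32 without control 3.

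Levels of different genes were compared per kilobase of the longest coding transcript in GENCODE release 29. On this scale ID4 was highest, at a mean of 92.0 CPM per kb over the 6 libraries, followed by ID2 at 56.9, ID3 at 52.7, TGFB1 at 28.3, BAMBI at 26.9, SMAD7 at 17.4, ID1 at 14.1, SKIL at 13.2, SMAD6 at 4.38 and TGFB2 at 1.98. Ranges over the 6 libraries overlapped between ID2 and ID3, between TGFB1 and BAMBI, between SMAD7 and ID1 and between ID1 and SKIL, so those neighbours were not set apart. The order rests on the transcript chosen: with the median transcript length in its place, 4 of the 10 genes kept their rank, and SMAD7 moved to rank 3 at 63.5 CPM per kb.

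By a rule that takes the gene with the largest change, the genes nearest to SKIL in pattern were sought over the 6 libraries among 11646 genes with a mean of at least 5 CPM. They were LOC401321, HOXD10 and LGR5, with Pearson correlations of log2 CPM of 0.995, 0.994 and 0.994. With 6 libraries in 2 groups, such values only describe these libraries. The log2 fold changes of the 3 genes were 0.27, 0.67 and 0.52.

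The rest of the pathway was read from 9 lists that hold none of the 10 genes and were also chosen with earlier results known. Of their 120 genes, 100 were tested, and 9 rose and 5 fell, or 14% against 4.83% of all genes tested in either direction. With library totals as the scaling, 8 rose and 9 fell, so that the balance of directions turned. Without single libraries the count in either direction ran from 4 to 40, and the share of all genes tested that passed from 0.440% to 20.8%. With the strand class term it was 3, all higher: PMEPA1, FN1 and BHLHE40. The median log2 fold change of the 10 genes was 0.26, that of the 100 list genes 0.08 and that of all genes -0.0022.

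Of 17 tested ligand genes of the family, 0 rose and 2 fell, against 2.66% and 2.17% of all genes tested. INHBE, an inhibin beta subunit induced by cell stress, fell from 2.06 ± 0.802 to 0.727 ± 0.153 CPM (log2 change -1.52, SE 0.33, edgeR FDR 0.0293). GDF11, a ligand that signals through SMAD2 and SMAD3, fell from 84.3 ± 2.78 to 65.8 ± 2.87 CPM (log2 change -0.36, SE 0.06, edgeR FDR 0.0121). INHBE passed in 2 and GDF11 in 3 of the 6 fits with a library left out. Neither passed with the strand class term, where INHBE was at -1.18 (edgeR FDR 0.383) and GDF11 at -0.37 (edgeR FDR 0.214). BMP2, BMP4 and BMP7 had log2 fold changes of -0.22, -0.26 and -0.04 with edgeR FDRs of 0.0874, 0.253 and 0.866. Of 15 tested receptors and co-receptors, 0 passed, with a median of -0.08, and TGFBR1, TGFBR2 and BMPR2 stood at -0.05, 0.07 and 0.25. At an unadjusted edgeR p under 0.05 there were 4 receptor genes (1 higher, 3 lower), against 1706 higher and 1671 lower of all 14582 genes tested. DESeq2 and limma-voom called 0 receptor genes. Without control 1, 4 lower receptor genes passed, and 20.8% of all genes tested passed in either direction.

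Of the 6 SMAD transducers, SMAD1, of the BMP branch, fell from 25.5 ± 1.49 to 19.9 ± 0.634 CPM (log2 change -0.36, SE 0.08, edgeR FDR 0.0324). Among all genes tested, 2.17% fell. SMAD1 passed in 1 of the 6 fits with a library left out, that without control 1, and missed the threshold with the strand class term (-0.40, edgeR FDR 0.267). Its closest relatives did not pass with all 6 libraries: SMAD5 and SMAD9 had log2 fold changes of 0.23 and 0.24 (edgeR FDR 0.0602 and 0.0717). In both, every co-culture library lay above every control. SMAD3 had a value of 0.19 (edgeR FDR 0.10), and SMAD2 and SMAD4 were both at -0.01, with 95% intervals of -0.15 to 0.13 and -0.13 to 0.11. Without control 1, SMAD3, SMAD5 and SMAD9 passed as higher beside SMAD1 as lower, and 20.8% of all genes tested passed. DESeq2 called SMAD1 lower and 1 other transducer higher. The E proteins TCF3, TCF4 and TCF12, partners of the ID proteins, had log2 fold changes of -0.08, 0.03 and 0.11 (edgeR FDR from 0.391 to 0.824).

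Of 12 intracellular repressors, 2 rose and 1 fell, against 2.66% and 2.17% of all genes tested. PMEPA1, which sequesters SMAD2 and SMAD3 at membranes and is a direct TGF-beta target, stood at 37.0, 39.5 and 39.9 CPM in co-culture and at 22.0, 19.1 and 21.3 CPM in the controls. The groups were far apart, and its log2 fold change was 0.90 (SE 0.08, 95% interval 0.72 to 1.07, edgeR FDR 0.000564). PMEPA1 passed in all 14 other settings, with a highest edgeR FDR of 0.0356 in the fit with the strand class term (0.83). Its relative LDLRAD4 rose from 25.1 ± 0.816 to 32.9 ± 0.864 CPM (log2 change 0.39, SE 0.07, edgeR FDR 0.0145) and passed in 2 of the 6 fits with a library left out. TOB2, an antiproliferative protein, fell from 91.8 ± 0.511 to 74.5 ± 2.35 CPM (log2 change -0.30, SE 0.06, edgeR FDR 0.0176), and it also passed in 2 of those 6. With the strand class term LDLRAD4 was at 0.41 and TOB2 at -0.27, and neither passed (edgeR FDR 0.211 and 0.287). The ubiquitin ligases SMURF1 and SMURF2, which work with SMAD7, did not pass, at 0.04 and 0.17.

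Outside the cell, 1 of 11 tested antagonists changed: GREM1, a secreted BMP inhibitor, fell from 10.1 ± 1.25 to 6.88 ± 0.288 CPM (log2 change -0.56, SE 0.13, edgeR FDR 0.0387). Among all genes tested, 4.83% passed in either direction. GREM1 passed in 2 of the 6 fits with a library left out and missed the threshold with the strand class term (-0.54, edgeR FDR 0.346). Of 9 tested genes of latency and activation, THBS1, a matrix protein that can activate latent TGF-beta, rose from 11.2 ± 1.18 to 15.5 ± 1.76 CPM (log2 change 0.48, SE 0.12, edgeR FDR 0.0457). THBS1 passed in 6 of 14 other settings, among them 1 of the 6 fits with a library left out. It missed the threshold with library totals (0.445, edgeR FDR 0.0512) and stood at 0.27 with the strand class term.

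Of 18 tested genes listed as responsive to TGF-beta, 6 rose and 0 fell, or 33.3% against 4.83% of all genes tested in either direction, and the median log2 fold change was 0.51. By size TGFBI, IL11 and FN1 led. FN1, which encodes the matrix protein fibronectin, stood at 1504, 1471 and 1581 CPM in co-culture and at 861, 748 and 920 CPM in the controls. It had a log2 fold change of 0.85 (SE 0.08, 95% interval 0.67 to 1.03, edgeR FDR 0.000678) and passed in all 14 other settings. TGFBI, another matrix protein, was low, at 2.18 ± 0.317 against 0.797 ± 0.240 CPM (log2 change 1.44, SE 0.28, edgeR FDR 0.0184), and the cytokine gene IL11 rose from 1.26 ± 0.372 to 2.63 ± 0.251 CPM (log2 change 1.08, SE 0.26, edgeR FDR 0.0394). TGFBI passed in 2 and IL11 in 1 of the 6 fits with a library left out, and neither passed with the strand class term (1.44 and 1.18, edgeR FDR 0.233 and 0.279). The other 3 that rose, named after their values were seen, were BHLHE40, KLF10 and TNC, at 0.67, 0.79 and 0.57. BHLHE40 also passed in all 14 settings, TNC in 13 and KLF10 in 10, and the latter pair missed the threshold with the strand class term (edgeR FDR 0.142 and 0.164). CCN2, a matricellular protein gene often read as a marker of TGF-beta activity, had a log2 fold change of 0.64 and did not pass (edgeR FDR 0.294), and JUNB was at -0.04. Without single libraries between 3 and 11 genes of this list passed, the last without control 1. In those fits 0.440% to 20.8% of all genes tested passed, the highest share also without control 1. The list median was 0.39 with the strand class term and 0.27 without control 3.

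Of 9 tested genes listed as responsive to BMP, 0 passed in edgeR, DESeq2 or limma-voom, and the median was -0.03. At an unadjusted edgeR p under 0.05, 1 of them was lower, against 1671 of all 14582 genes tested. HEY1, MSX2 and DLX2 had log2 fold changes of 0.09, -0.03 and 0.11, and that of TLX2, at 0.723 ± 0.122 against 1.57 ± 0.452 CPM, was -1.13 (edgeR FDR 0.0575). In this list, 2 genes passed without control 1 (1 higher, 1 lower) and 1 lower gene passed without control 3. Of all genes tested, 20.8% and 5% passed in those fits in either direction. The difference between the TGF-beta and BMP lists was not tested.

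**Figure D4:**
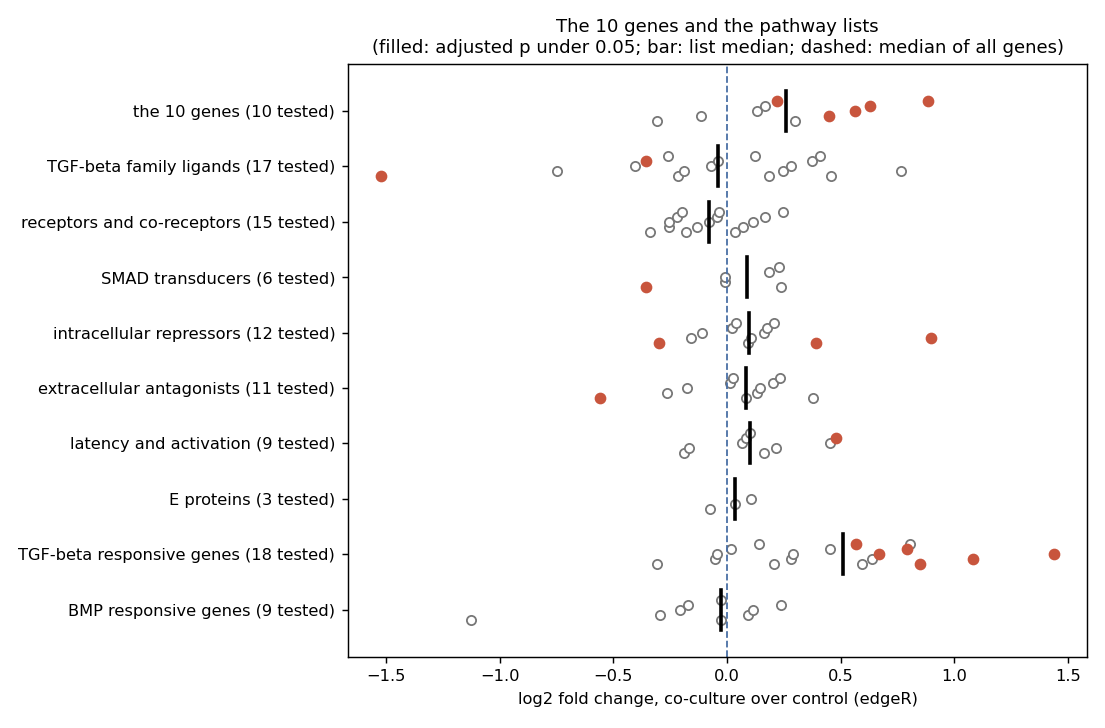
Log2 fold change of co-culture over control (horizontal axis) for the 10 genes and for each tested gene of the 9 pathway lists, with bars at list medians, filled where the edgeR FDR was under 0.05, and a dashed line at the median of all genes. The TGF-beta responsive list has a median of 0.51 and 6 filled points, and the BMP responsive list has a median of -0.03 and 0.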

How the data were processed

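RNA from 6 samples, 3 per group, was extracted with TriPure and, per the labels' protocols, made into stranded mRNA libraries with a kit from Illumina. The authors deposited raw read counts per gene in the layout of STAR's gene counting, and STAR 2.53a, FastQC and the build hg18 are named in the submitters' processing notes. The annotation is not given in the sources used here. Counts on the reverse strand were used, since they held most gene reads in each library. Reads without a gene (per library, 14.8% to 17.7%), multimapping reads (6.48% to 8.42%), unmapped reads (1.22% to 1.67%) and ambiguous reads (0.835% to 1.01%) stayed out of library sizes. One read was worth 0.0279 to 0.0522 CPM.

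Groups came from the sample titles. Genes passing filterByExpr (minimum count 10) were fitted by group in edgeR 4.0.16, run in R 4.3.3, with TMM scaling and the robust quasi-likelihood F test, with Benjamini-Hochberg adjustment over all tested genes at 0.05. SE was derived from each log2 fold change and its F value, and 95% intervals use the t distribution on the fit's degrees of freedom. The alternatives were DESeq2 1.42.0, limma-voom (limma 3.58.1), other scalings, no filter, unstranded counts, the replicate number as a block, the strand class as a batch term, and each library left out. Libraries of a group differed by a chi-square per degree of freedom of 4.03 to 15.2, so none was counted as a repeat. The fit was tested on simulated data. Promoter windows came from RefSeq (GRCh38.p14) and transcript lengths from GENCODE release 29, whose build differs from the one in the notes, so neither was joined to reads by position. The genes and lists were chosen with earlier results of these data known. Named in the text were the 10 genes, up to 3 list genes per direction that passed and averaged 1 CPM or more, the SMAD transducers and E proteins, and others that are given as values.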

Additional observations from a re-analysis of the deposited data

How the results depend on the processing

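All 10 genes kept their direction in each of 14 other settings. Of 140 such values, 107 stayed on the same side of the threshold. Another 31 values, all from the 5 genes past it with all 6 libraries, lost it, and 2 gained it (SMAD6 and BAMBI, both without control 1). The number of the 10 genes past the threshold, 5 in all 6 libraries, was 3 with library totals, 1 with the replicate block, 0 with the strand class term and 1 to 7 with single libraries left out. The number of all genes was 164 with the replicate block, 29 with the strand class term and 65 to 3069 without single libraries. The number of list genes, 14 at first, was 6 with the replicate block, 3 with the strand class term and 4 to 40 without single libraries. Library totals gave 310 higher and 572 lower genes against 388 and 316. With the median transcript length, 4 of the 10 genes kept their rank by level. The cause of these changes was not tested. Deviations of same-numbered libraries correlated at -0.0579, -0.130 and -0.138 across genes, so no shared shift of such libraries was seen. These values cannot show whether same-numbered samples were prepared together, which is not stated. With the replicate block SKIL passed (0.89, edgeR FDR 0.0202). SMAD7, TGFB1, ID1 and ID2 did not, at 0.65, 0.57, 0.46 and 0.22 (edgeR FDR 0.0502, 0.0524, 0.0905 and 0.126). Each of the 10 genes had at least 183 reads in every library.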

Other observations

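Several genes of the pathway lists did not pass but had groups that did not overlap, as was the case for 29.3% of all genes tested. ITGAV, the integrin subunit that takes part in activating latent TGF-beta, stood at 340, 312 and 317 CPM in co-culture libraries 1 to 3 and 186, 242 and 279 CPM in controls 1 to 3 (log2 fold change 0.45, edgeR FDR 0.0749). BMP6 stood at 34.9, 37.1 and 33.8 CPM in co-culture and at 32.1, 25.5 and 24.1 CPM in the controls (log2 fold change 0.37, edgeR FDR 0.0647). The co-receptors TGFBR3 and RGMB were lower in every co-culture library, with log2 fold changes of -0.26 and -0.25 (edgeR FDR 0.0615 and 0.0643). These genes were named after their values were seen.

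Reads on the strand opposite to the 10 genes were few. The largest share was that of ID4, at 2.01% of its reads over all libraries, with 129, 9 and 35 such reads in co-culture libraries 1, 2 and 3 and 144, 97 and 205 in controls 1, 2 and 3. Libraries with few opposite-strand reads in all genes, co-culture 2 and 3, were also low here. For SKIL the share was 1.35%, and for the other 8 genes it lay between 0.161% and 1.88%. In 0 of the 10 genes did all co-culture libraries exceed all controls on that strand. Since co-culture libraries 2 and 3 held few such reads in all genes, this count cannot show whether opposite-strand signal changed.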
